A study of Homo sapiens with 25 samples.

Results

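The HOX genes encode homeodomain transcription factors and lie in 4 clusters, HOXA on chromosome 7, HOXB on chromosome 17, HOXC on chromosome 12 and HOXD on chromosome 2. The clusters were examined through 38 of their protein-coding genes, of 19970 protein-coding genes on chromosomes 1 to 22 and X in the hg38 RefSeq table: 10 in HOXA, 10 in HOXB, 9 in HOXC and 9 in HOXD. A gene was chosen by its place in a cluster and not by any measured value. Its window is the RefSeq span extended by 5 kb at each side, and a cluster window runs from the first to the last of these genes with the same extension. The measurement is the covered length, the number of base pairs (bp) in a window that lie under called peaks.

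The cells were HCT116, a human colorectal carcinoma line. Control cells carried an empty pSin lentiviral vector and FOXD2 cells a pSin vector with the full-length FOXD2 coding sequence, both stable and kept under puromycin. Chromatin immunoprecipitation gave 2 control and 2 FOXD2 libraries each for H3K4me1, H3K27ac and MLL4, and 1 of each for H3K4me3. A further set of HCT116 cells carried a pcDNA3.1 plasmid for FOXD2 with 3xFLAG and 6xHis tags, from which 2 libraries were made with an antibody to 6xHis and 2 with an antibody to FLAG. In all, 18 of the 25 libraries gave a peak list, and the 7 inputs were not used here. The labels number the replicates without saying whether they came from separate cultures or clones, so p-values measure the spread between these libraries.

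HOX genes are ordered along their clusters as they are used from head to tail in the embryo, with low numbers anterior and high numbers posterior, and the gut epithelium keeps part of that pattern in the adult. H3K4me1 marks enhancers and the flanks of promoters and is written at enhancers by MLL3 and MLL4 (KMT2D), H3K27ac marks active enhancers and promoters, and H3K4me3 marks promoters. FOXD2 is a forkhead transcription factor.

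The lists differed in length, which bears on any covered length. The H3K4me1 lists covered 146.3 and 121.3 Mb in control and 163.8 and 177.4 Mb in FOXD2 cells, and the H3K27ac lists 131.6 and 89.3 Mb against 111.3 and 170.9 Mb. The MLL4 lists held 16046 and 13571 peaks in control and 22493 and 4676 in FOXD2 cells, so that FOXD2 replicate 2 was the shortest. Read depth is unknown for all lists. H3K4me3 peaks lay in both lists at 8 of 11 markers of colorectal epithelium (not KRT20, VIL1 or CDH17), 2 of 5 of blood, 4 of 6 of fibroblast and endothelium and 3 of 4 of neural cells, so this mark alone did not separate the tissues.

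Most HOX gene windows held histone mark peaks in these cells. H3K4me3 peaks lay in both lists at 35 of the 38 windows, beside 70.2% of all protein-coding genes, and in neither list at HOXB1, HOXD3 and HOXD4. A peak in a window need not lie at the promoter. Of the members with a RefSeq promoter sequence at hand, HOXA2, HOXD10, HOXD12 and HOXD13 had H3K4me3 in the window but not at the promoter. H3K4me3 lay in both lists at a promoter of HOXA3, HOXA4, HOXA6, HOXA7, HOXA9, HOXA10, HOXA11, HOXA13, HOXC4, HOXC5, HOXD1, HOXD8 and HOXD11. H3K4me1 was found in all 4 lists at 36 windows, beside 79.1% of all genes, with HOXD3 in 1 list and HOXD4 in none. H3K27ac was found in all 4 lists at 34 windows, beside 73.1%, and in 3 lists at HOXD1, HOXD4, HOXD9 and HOXD10. HOXD4, a gene of the hindbrain pattern, was thus the least marked member, with 2 short H3K27ac peaks in control replicate 2 and 1 each in control replicate 1 and FOXD2 replicate 2.

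The share of each window under peaks was highest in the middle of HOXA and HOXB. Averaged over the 2 H3K4me3 lists, the covered share was 72.5% at HOXA9, a gene known for its part in acute myeloid leukaemia, 70.7% at HOXB7, 68.3% at HOXB8, 60.3% at HOXA10 and 54.8% at HOXA7. It was 19.7% at HOXA2, at one end of its cluster, and 16.1% at HOXA13, at the other. HOXA9, HOXA10, HOXB7 and HOXB8 also had the highest H3K27ac shares, with mean covered shares over 4 lists of 80.9% at HOXB7, 80.0% at HOXB8, 77.5% at HOXA9 and 75.6% at HOXA10. For H3K4me1 the highest mean shares were 68.3% at HOXA10, 67.8% at HOXA4 and 64.9% at HOXB8. In HOXD the highest H3K4me1 share was 31.4%, at HOXD8, and in HOXC it was 38.4%, at HOXC9. The share at HOXB13, a gene of the posterior gut and prostate, was 18% for H3K4me1 and 43.9% for H3K27ac. Neighbouring windows overlap, and the RefSeq span of HOXA3 contains those of HOXA4, HOXA5 and HOXA6, that of HOXB3 contains HOXB4, and that of HOXC4 contains HOXC5 and HOXC6, so their values are not independent.

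**Figure D1:**
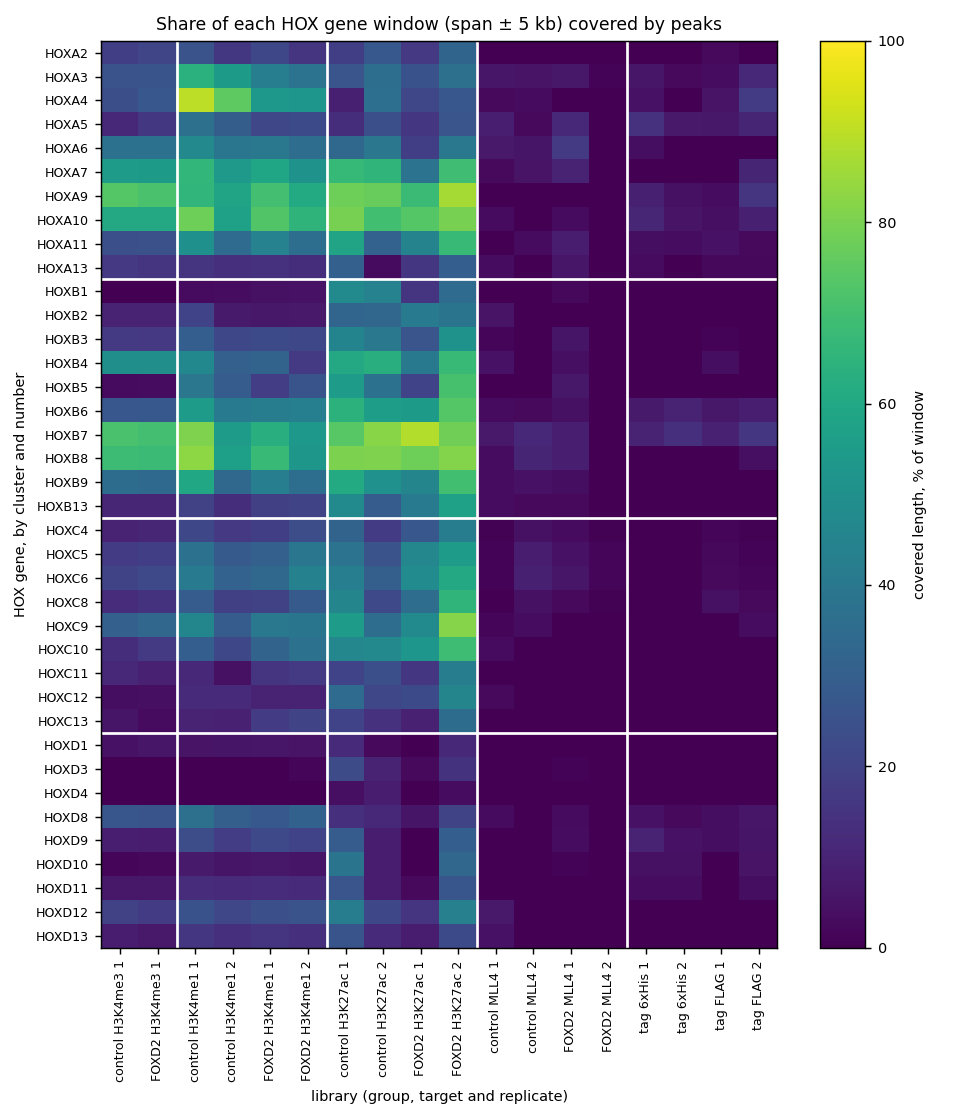
Share of each HOX gene window (span with 5 kb on each side) covered by peaks, as a colour from 0 to 100%, with 1 row per gene and 1 column per library, and white lines between clusters and targets. HOXA7, HOXA9, HOXA10, HOXB7 and HOXB8 are bright for the 3 histone marks, and HOXB1, HOXD3 and HOXD4 are dark for H3K4me3.

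H3K4me3 domains were wide at the centre of HOXA. One peak ran over 7531 bp at HOXA9 in control cells (chr7:27163036-27170566) and over 7400 bp in FOXD2 cells, rank 17 by width in both lists. A peak over HOXB7 and HOXB8 had 5640 bp in control and 5536 bp in FOXD2 cells, rank 102 and rank 82.

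H3K4me3 covered nearly the same length in both groups. It covered 35.9 kb of the HOXA window in control and 35.9 kb in FOXD2 cells, 32.4 and 32.2 kb of HOXB, 14 and 14.5 kb of HOXC, and 7.45 and 7.51 kb of HOXD. Over the 35 genes with peaks in both lists the ratio of FOXD2 to control had a median of 1.01, beside 0.971 over all genes with peaks in both. The lowest ratio was 0.536, at HOXC13, a gene of hair and nail growth, where covered length was 992 bp in control and 532 bp in FOXD2 cells. The highest was 1.47, at HOXA5, a gene of lung development, with 1388 and 2039 bp. Over 1.5 times longer in control was 1 member, HOXC13, beside 3.3% of genes, and over 1.5 times longer in FOXD2 cells were 0, beside 0.806%. There was 1 library per group, so these differences have no replicate check.

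**Figure D2:**
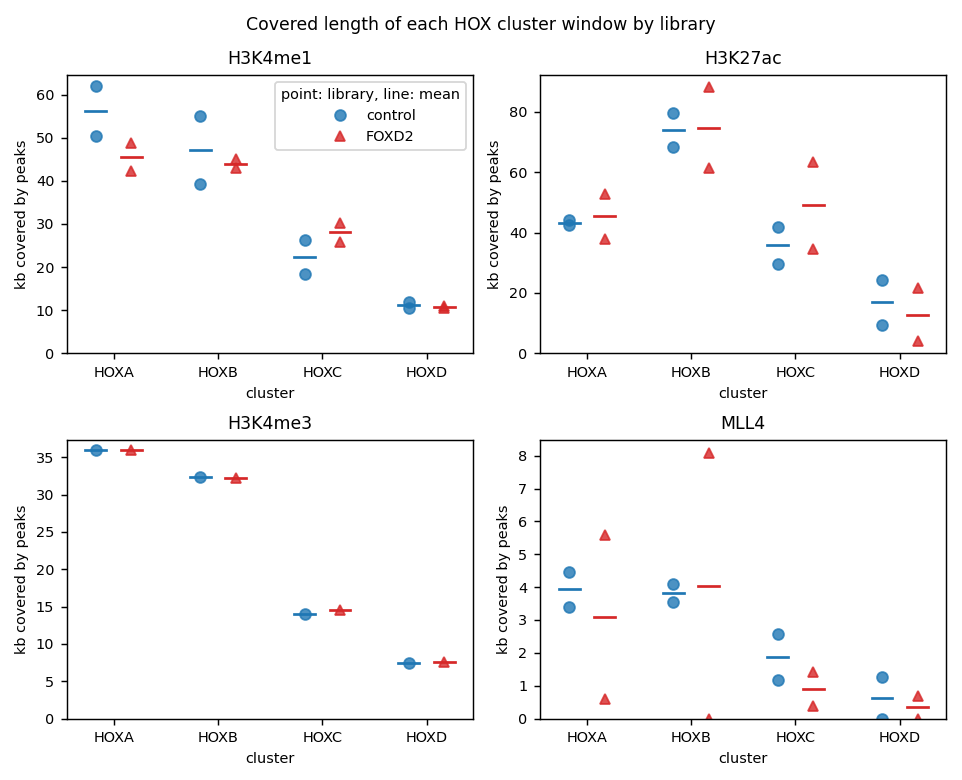
Covered length in kb of each cluster window for H3K4me1, H3K27ac, H3K4me3 and MLL4, with 1 point per library (circles control, triangles FOXD2) and a line at each group mean. For H3K4me1 in HOXA the FOXD2 libraries (48.8 and 42.4 kb) lie below both control libraries (62.1 and 50.4 kb), while for H3K27ac and MLL4 the ranges of the groups overlap in each cluster.

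Whether FOXD2 expression moved the enhancer mark H3K4me1 at these genes was asked next. HOXA3, HOXA4 and HOXA5 had less H3K4me1 covered length in FOXD2 than in control cells, but none of them passed the genome-wide test. The posterior HOXC gene HOXC13 had more and did pass it, as the sole member of 36 tested. Across all genes the H3K4me1 lists went the other way from HOXA: 2776 genes (16.8% of 16570) were higher in FOXD2 cells and 380 (2.29%) lower. Beside these shares the HOX members stood at 1 higher and 0 lower, by limma with Benjamini-Hochberg adjustment at 0.05. At an unadjusted limma p under 0.05 the members stood at 2 higher and 2 lower, and no share over all genes was counted at that cut.

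HOXA3, a gene of the thymus and the third pharyngeal arch, had H3K4me1 covered lengths of 35498 and 30198 bp in control and 23838 and 21205 bp in FOXD2 cells. Both FOXD2 values lay below both control values. The group means were 32.8 ± 3.75 kb (SD, n = 2) in control and 22.5 ± 1.86 kb in FOXD2 cells. The log2 fold change on the log2(bp + 200) scale was -0.54 (SE 0.17, limma adjusted p = 0.0548).

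HOXA4, whose window lies within that of HOXA3, had 11019 and 9215 bp in control and 6514 and 6451 bp in FOXD2 cells (log2 fold change -0.62, SE 0.22, limma adjusted p = 0.0707). HOXA5 had 4668 and 3713 bp against 2684 and 2842 bp (log2 fold change -0.56, SE 0.26, limma adjusted p = 0.186). In both, the groups did not overlap. The other HOXA members, from HOXA6 to HOXA13 and HOXA2, had log2 fold changes between -0.18 and 0.08, with overlapping groups. HOXA10, a gene of the uterus, had 15039 and 11033 bp in control and 14016 and 12498 bp in FOXD2 cells, so in HOXA the members with separated groups were HOXA3, HOXA4 and HOXA5.

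The H3K4me1 peaks themselves differed over HOXA4 and the part of the HOXA3 span beside it. Control replicate 1 had a single peak of 10.7 kb (chr7:27128024-27138696) and control replicate 2 one of 7.05 kb (chr7:27131023-27138071) with separate peaks of 0.52 and 1.32 kb beside it, over HOXA4. In FOXD2 replicate 1 the same ground held peaks of 0.706, 0.956 and 3.96 kb, and in FOXD2 replicate 2 peaks of 0.317, 1.09, 0.868 and 3.88 kb. The longest stretches under peaks in both control lists and neither FOXD2 list were 1523 bp at chr7:27121085-27122607 and 1407 bp at chr7:27131989-27133395, both in the HOXA3 span. Further such stretches had 778 bp (chr7:27119349-27120126), 713 bp (chr7:27137359-27138071) and, in the HOXA11 span, 606 bp (chr7:27182341-27182946). None of these 5 had a peak in an MLL4 or H3K4me3 list. Tag peaks lay in the 1407 bp stretch in 2 of the 4 tag lists and in the 713 bp stretch in 1.

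**Figure D3:**
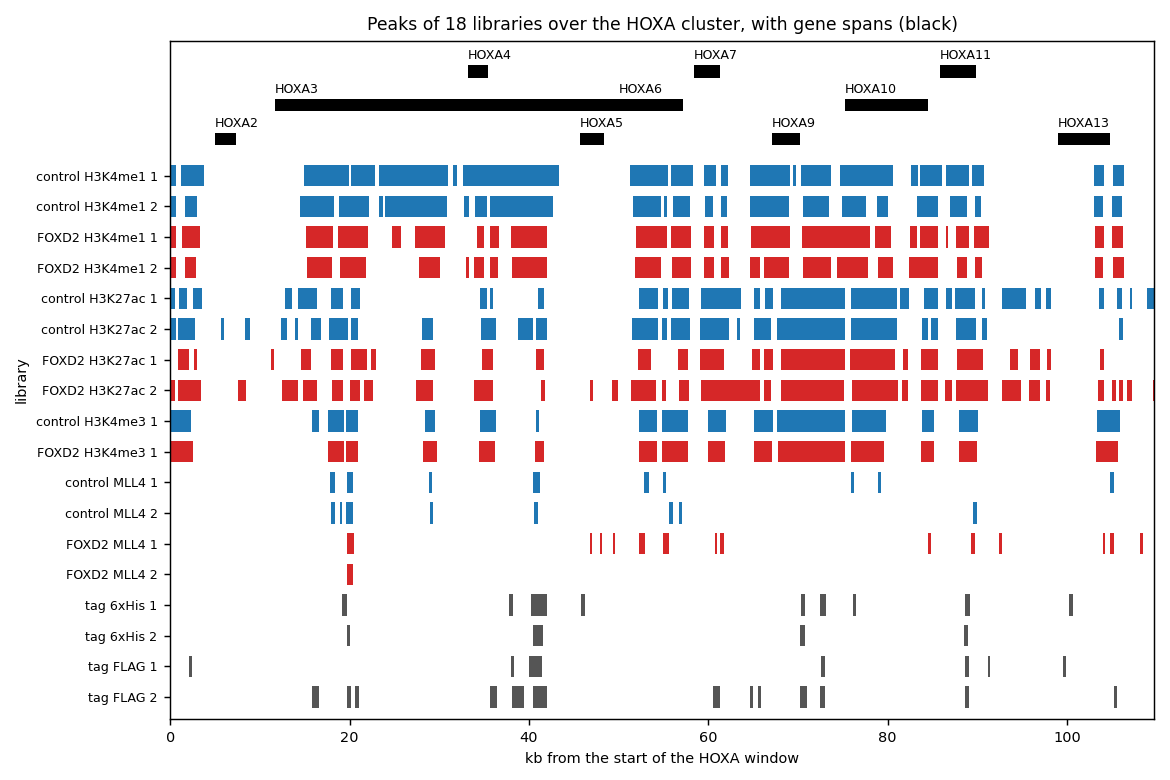
Peaks of the 18 libraries over the HOXA window, in kb from its start, with gene spans in black and 1 row per library (blue control, red FOXD2, grey tag). Between about 24 and 43 kb, over HOXA4 and the neighbouring part of HOXA3, the control H3K4me1 rows hold longer blocks than the FOXD2 rows, with breaks over HOXA4 in control replicate 2 as well.

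Of all HOXA bases under a peak in any H3K4me1 list (65.1 kb), 6.85 kb or 10.5% were under peaks in both control lists and neither FOXD2 list, and 0.47 kb or 0.722% the reverse. Over all chromosomes these shares were 4.78% and 15.2%. In HOXB they were 5.6% and 5.32%, in HOXC 1.31% and 6.05%, and in HOXD 3.52% and 1.33%. Bases are not replicates and no test was made of these shares. The whole HOXA window had 62.1 and 50.4 kb covered in control and 48.8 and 42.4 kb in FOXD2 cells, a difference of -10.7 kb (exact permutation test, two-sided, p = 0.33, the smallest that 2 against 2 libraries allow). The FOXD2 to control ratio was 0.81 in HOXA, 0.931 in HOXB (exact p = 1.00), 1.25 in HOXC (exact p = 0.667) and 0.96 in HOXD (exact p = 1.00).

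The RefSeq table gives several HOXA3 promoters, each 250 bases before to 50 after a start. The one at chr7:27119546-27119845, on the minus strand, lies in the 778 bp stretch and was under an H3K4me1 peak in both control lists and in no other list of any target. It holds no CG dinucleotide, where the median promoter of the table holds 14. It is printed 5′ to 3′ with capitals at TTTAT or ATAAA, a short core found in HOX binding sequences.
HOXA3 promoter: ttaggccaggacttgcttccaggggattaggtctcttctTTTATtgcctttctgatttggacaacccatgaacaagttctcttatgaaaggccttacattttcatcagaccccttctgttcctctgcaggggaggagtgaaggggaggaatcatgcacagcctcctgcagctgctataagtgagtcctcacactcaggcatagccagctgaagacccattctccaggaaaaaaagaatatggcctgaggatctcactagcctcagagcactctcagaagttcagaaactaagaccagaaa

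At the other end of HOXC, HOXC13 had H3K4me1 covered lengths of 1720 and 1600 bp in control and 3138 and 3642 bp in FOXD2 cells. The FOXD2 values lay above both control values (log2 fold change 0.95, SE 0.28, limma adjusted p = 0.0387). All 4 lists had a peak at one end of the gene span, and both FOXD2 lists had a further one, of 1.35 and 1.30 kb, beyond the other end. Control replicate 2 also had a peak beyond that end, at another place (chr12:53950223-53950667, 445 bp). The part of this further peak common to both was chr12:53948233-53949161, 929 bp, with no H3K4me1 in control and H3K27ac in 1 list. The call was lost with each of the 4 libraries left out (limma adjusted p from 0.061 without control replicate 1 to 0.517 without FOXD2 replicate 2) and with the window set to the gene span alone (limma adjusted p = 0.308), a setting that leaves the further peak out.

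HOXC11 and HOXC10, further toward the middle of HOXC, were also above control in both FOXD2 lists. HOXC11 had 1637 and 625 bp against 2252 and 2473 bp (log2 fold change 1.06, SE 0.40, limma adjusted p = 0.098), and without control replicate 1 it passed (limma adjusted p = 0.0376). HOXC10, used in hindlimb motor neurons, had 4518 and 3248 bp against 4847 and 5670 bp (limma adjusted p = 0.327). HOXC12, between HOXC11 and HOXC13, lay the other way, with 1696 and 1672 bp against 1340 and 1415 bp (limma adjusted p = 0.703). HOXC10 to HOXC13 thus did not all lie in one direction.

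In HOXB, HOXB5 had 4965 and 3659 bp of H3K4me1 in control and 2293 and 3226 bp in FOXD2 cells (log2 fold change -0.61, SE 0.29, limma adjusted p = 0.185). HOXB2 had 2506 and 891 bp against 786 and 829 bp, where control replicate 1 stood apart from the other 3 lists (log2 fold change -0.77, SE 0.45, limma adjusted p = 0.307). HOXB1, the most anterior member, had 357 and 432 bp against 556 and 607 bp (limma adjusted p = 0.664). The span of HOXB3 held stretches of each kind, 723 bp in both control lists alone (chr17:48579550-48580272), and 1578 bp (chr17:48556317-48557894) and 664 bp (chr17:48567416-48568079) in both FOXD2 lists alone. Its covered lengths of 15286 and 11045 bp against 11482 and 11038 bp overlapped.

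Among the most covered members of HOXC, HOXC4 had 10716 and 8127 bp in control and 9064 and 11594 bp in FOXD2 cells, with overlapping groups. HOXC5, in the same span, had 10716 and 8127 bp against 8775 and 11222 bp, and HOXC6 9955 and 7488 bp against 8061 and 10505 bp, with log2 fold changes of 0.09 each. The HOXD members tested had log2 fold changes from -0.18 at HOXD8 to 0.10 at HOXD12. HOXD3 and HOXD4 had too little H3K4me1 to be tested, with 402 bp in FOXD2 replicate 2 as the only value above 0.

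In all, 4 of the 36 members tested for H3K4me1 had both FOXD2 lists above both control lists (HOXB1, HOXC10, HOXC11 and HOXC13), beside 40.6% of all genes, and 6 had both below (HOXA3, HOXA4, HOXA5, HOXB2, HOXB5 and HOXC12), beside 12.1%. The median log2 fold change was -0.05 over these members and 0.17 over all genes. With each list centred on its own median, an alternative chosen after seeing the data, the median of all genes moved to -0.08, and the genes passing were 2549 higher and 1641 lower in place of 2776 and 380. On that scale 6 members passed as lower: HOXA3 at -0.79 (limma adjusted p = 0.00213), HOXA4 at -0.87 (limma adjusted p = 0.00177), HOXA5 at -0.81, HOXB3 at -0.46, HOXB4 at -0.91 and HOXB5 at -0.86, and HOXC13 passed as higher at 0.69. Without control replicate 2, however, the calls of the uncentred fit were lost in both directions, over all genes and members. The median log2 fold change was then -0.23 over members and -0.01 over all genes, with control resting on 1 library.

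**Figure D4:**
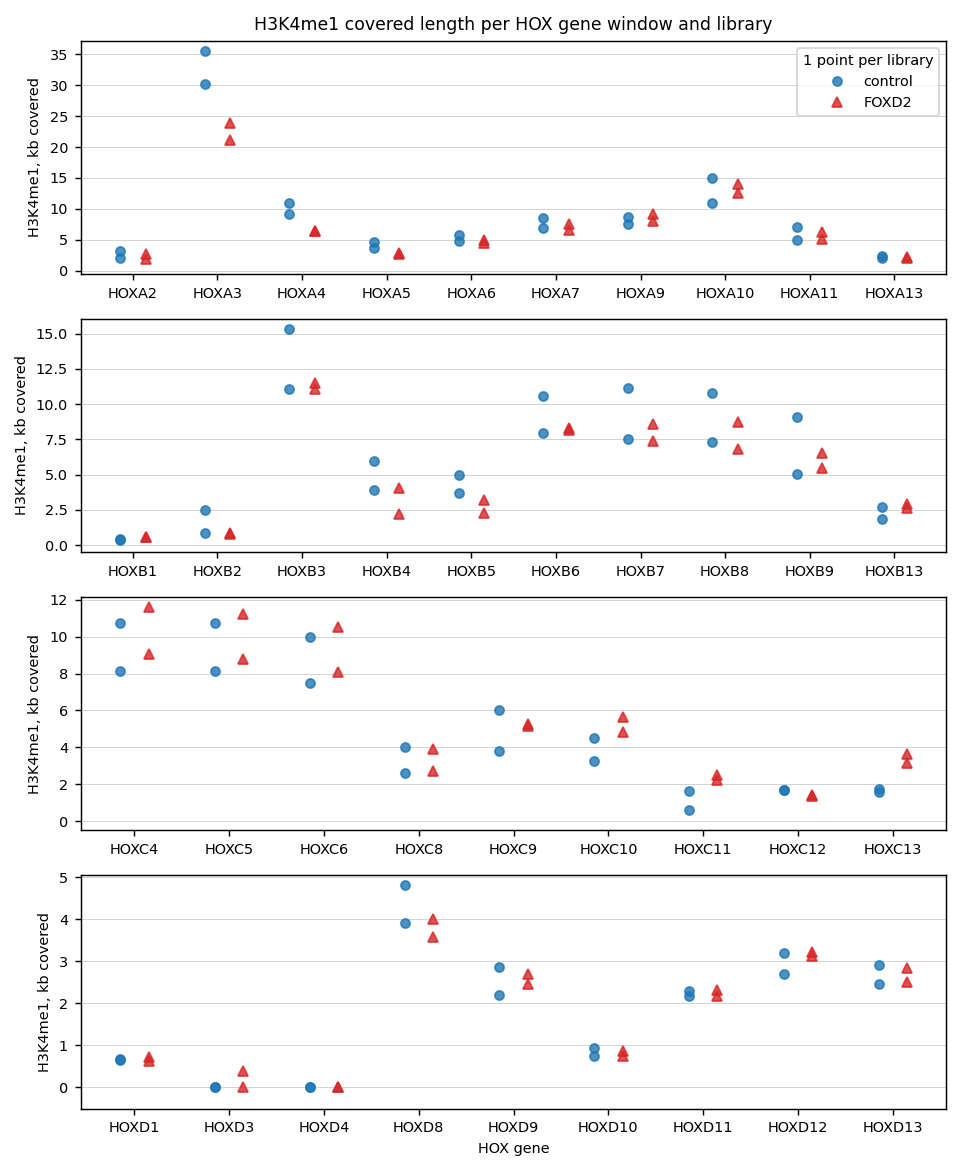
H3K4me1 covered length in kb at each HOX gene window, 1 panel per cluster, with 1 point per library (circles control, triangles FOXD2). HOXA3, HOXA4 and HOXA5 show both triangles below both circles, and HOXC10, HOXC11 and HOXC13 show both above.

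For H3K27ac, 6 members had groups that did not overlap and 32 had groups that did. No gene of 16401 passed the limma test in either direction. Of the 38 members 0 had an unadjusted limma p under 0.05, and no share over all genes was counted at that cut. The ranges of the groups overlapped in each cluster: HOXC had 34.6 and 63.4 kb covered in FOXD2 cells and 41.8 and 29.7 kb in control, and HOXD had 3.95 and 21.7 kb against 24.3 and 9.49 kb. HOXA had 44.1 and 42.6 kb in control and 37.9 and 52.9 kb in FOXD2 cells, and HOXB 79.5 and 68.3 kb against 61.3 and 88.2 kb. The exact permutation p was 1.00 for HOXA and HOXB and 0.667 for HOXC and HOXD.

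Both FOXD2 lists lay above both control lists for H3K27ac at HOXC5, HOXC6, HOXC10 and HOXB2, 4 members beside 30.7% of all genes. HOXC5 had 10871 and 7284 bp in control and 13222 and 15609 bp in FOXD2 cells (log2 fold change 0.68, SE 0.39, limma adjusted p = 0.789). HOXC6, whose window lies within that of HOXC5, had 10195 and 7284 bp against 11580 and 14485 bp. HOXC10 had 6981 and 7144 bp against 7928 and 10452 bp, and HOXB2, a gene of the hindbrain pattern, 4043 and 4096 bp against 5106 and 4776 bp. The direction at HOXC10 and HOXB2 turned when lists were centred on their medians (log2 fold changes of -0.03 and -0.12), which moved the median of all genes from 0.30 to -0.09.

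Both FOXD2 lists lay below both control lists at HOXB1 and HOXD4, 2 members beside 4.52%. HOXB1 had 5992 and 5518 bp in control and 1895 and 4360 bp in FOXD2 cells (log2 fold change -0.94, SE 0.49, limma adjusted p = 0.761), with no H3K4me3 peak in either group. HOXD4 had 477 and 940 bp against 0 and 371 bp. Among the most covered members, HOXB3 had 23161 and 20654 bp against 13448 and 26433 bp, and HOXA3 14629 and 20025 bp against 13983 and 20548 bp, so that HOXA3 did not follow for H3K27ac the difference it had for H3K4me1 (log2 fold change -0.01, SE 0.41). HOXA10 had 15289 and 13427 bp against 14220 and 15265 bp, HOXB6 12389 and 10775 bp against 10466 and 14189 bp, and HOXC4 15641 and 8467 bp against 13248 and 20785 bp, all with overlapping groups.

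The median H3K27ac log2 fold change was 0.03 over members and 0.30 over all genes. The counts of separated members turned on single libraries. Without FOXD2 replicate 1, 28 of 38 members lay above control, beside 11685 of 16445 genes. Without FOXD2 replicate 2, 23 of 38 members lay below control, beside 4392 of 16221 genes. In FOXD2 replicate 1 the windows of HOXD1, HOXD4, HOXD9 and HOXD10 held no H3K27ac peak.

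MLL4, the enzyme that writes H3K4me1 at enhancers, had peaks in at least 1 list at 31 of the 38 windows. Peaks lay in all 4 lists at HOXA3, HOXC4, HOXC5 and HOXC6, beside 10.1% of all genes, and in no list at HOXA2, HOXA9, HOXC11, HOXC13, HOXD1, HOXD4 and HOXD11, beside 37.9%. HOXA3 had the longest cover, 3375 and 2976 bp in control and 3500 and 597 bp in FOXD2 cells. HOXC4, HOXC5 and HOXC6 shared the same peaks, with 243 and 2145 bp against 1427 and 372 bp.

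Of 8092 genes tested for MLL4, 0 passed the limma test. Of the 21 members tested 0 had an unadjusted limma p under 0.05, and no share over all genes was counted at that cut. Among these 21 members 0 had both FOXD2 lists above control, beside 2.69% of genes. HOXB13 had both below, beside 22.4%, with 491 and 363 bp against 359 and 0 bp. HOXA4, with 334 and 341 bp against 0 and 0 bp, and HOXC9, with 196 and 418 bp against 0 and 0 bp, were under the filter of a mean of 200 bp. HOXB7 had 961 and 1539 bp against 1180 and 0 bp, and HOXA6 850 and 687 bp against 2079 and 0 bp. The short FOXD2 replicate 2 list covered 0 kb of HOXB and HOXD. Without it the log2 fold change at HOXB5 was 2.32. That window had 0 and 0 bp in control and 800 bp in FOXD2 replicate 1, so it met the filter through FOXD2 cells alone. Without FOXD2 replicate 1 the log2 fold changes at HOXA3, HOXA6 and HOXB7 were -2.08, -2.27 and -2.83. HOXA6 and HOXB7 then met the filter through control cells alone, as the FOXD2 list left had 0 bp at both. The cluster totals were 4.46 and 3.4 kb against 5.58 and 0.597 kb in HOXA, with exact p = 1.00.

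Tagged FOXD2 was called mainly at HOXA, at the middle of HOXB and in the HOXB9 to HOXB13 interval. A tag peak lay in all 4 tag lists at 9 windows (HOXA3, HOXA5, HOXA9, HOXA10, HOXA11, HOXB6, HOXB7, HOXD8 and HOXD9), beside 28.6% of all genes and 39% of genes with H3K4me3 in both lists, and all 9 had H3K4me3 in both lists. It lay in 3 lists at HOXA4, HOXA13, HOXD10 and HOXD11, and 39.3% of all genes had it in 3 or 4 lists. These counts are of windows, not sites: at HOXA9, HOXD8 and HOXD9 no single region was in all 4 lists, and at HOXA13 the 3 lists had 3 separate peaks. At 14 windows, beside 39.5% of all genes, no list had one: HOXB1, HOXB2, HOXB5, HOXB9, HOXB13, HOXC10 to HOXC13, HOXD1, HOXD3, HOXD4, HOXD12 and HOXD13. There was no list from cells without the tag to compare with.

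Merged over the 4 lists, the tag peaks formed 19 regions in HOXA, 14 in HOXB, 2 in HOXC and 4 in HOXD, of which 5 were in all 4 lists and 22 in 1 list. The widest of the 5 was chr7:27135388-27137413 (2026 bp) in the HOXA3 span, with the authors' fold enrichment of 7.65 and 4.59 in the 6xHis lists and 6.88 and 5.62 in the FLAG lists. Its end overlaps the first bases of the 713 bp stretch that had H3K4me1 in control lists alone, and it had H3K4me1 and H3K27ac in all 4 lists. A second lay in the HOXA11 span (chr7:27183885-27184498) with folds from 3.48 to 5.03. In HOXB there were chr17:48604494-48605361, in HOXB6, with folds from 4.40 to 6.70, chr17:48606432-48607229, 3 bp from HOXB7, and chr17:48671096-48672504, 44738 bp from HOXB9 in the interval toward HOXB13. HOXC13, the gene with the H3K4me1 call, had no tag peak in any list.

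**Figure D5:**
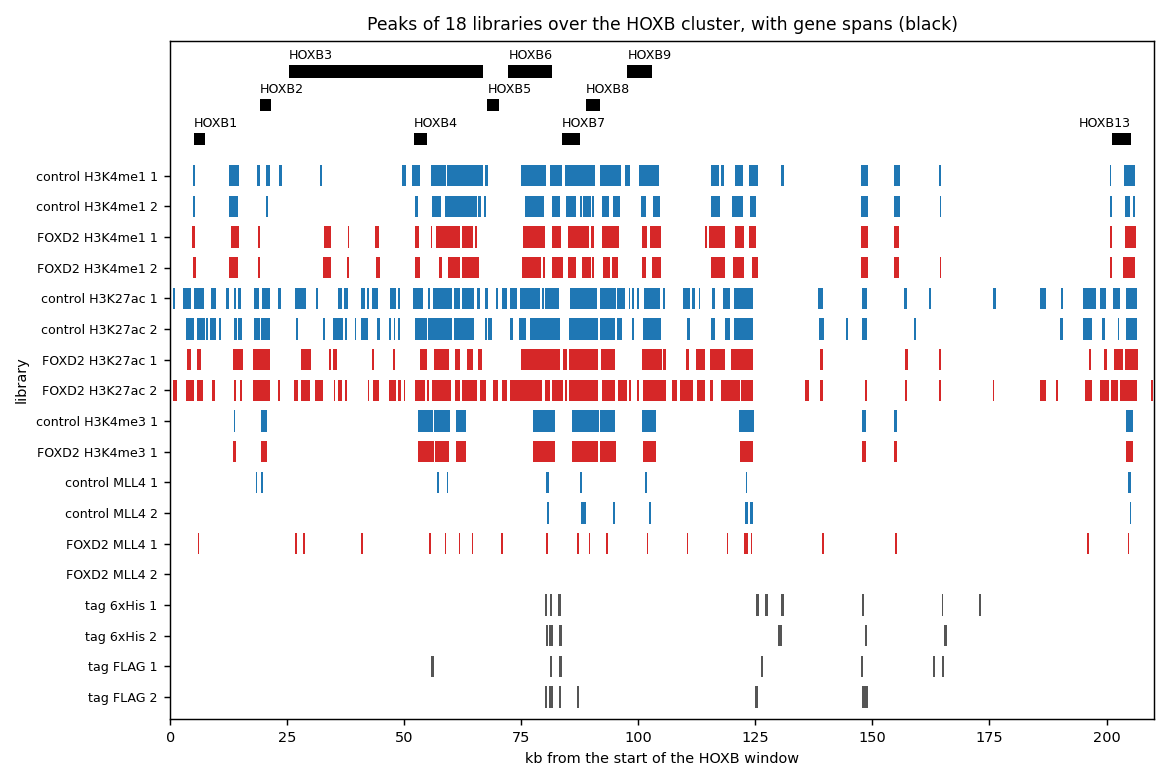
Peaks of the 18 libraries over the HOXB window, in kb from its start, with gene spans in black and 1 row per library (blue control, red FOXD2, grey tag). Tag peaks gather near HOXB6 and HOXB7 and between HOXB9 and HOXB13, and the MLL4 row of FOXD2 replicate 2 is empty.

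Promoter sequences were at hand for 20 members, as 27 promoters of 300 bases from the RefSeq table (GRCh38.p14). The forkhead core TGTTTAC, or GTAAACA on the other strand, was in 2 of the 27, the promoters of HOXC4 and HOXC5, which are 1 and the same sequence, beside 3.42% of 35116 promoters. TTTAT or ATAAA was in 15 of the 27, beside 34.9%. At least 10 CG dinucleotides were in 23 of the 27, beside 56.4%, with a median of 22 in the members' promoters and 14 in all. A match is only a match of letters in this window. The promoters of HOXA9, HOXC4 and HOXD4 are printed 5′ to 3′ with capitals at either motif, chosen for the marks found there. The HOXA9 promoter (chr7:27165488-27165787, minus strand) was under H3K4me3 in both lists and under a tag peak in 3 lists, the HOXC4 promoter (chr12:54016638-54016937, plus strand) has the forkhead match and was under a tag peak in 1 list, and the HOXD4 promoter (chr2:176151300-176151599, plus strand) was under no peak of any list.
HOXA9 promoter: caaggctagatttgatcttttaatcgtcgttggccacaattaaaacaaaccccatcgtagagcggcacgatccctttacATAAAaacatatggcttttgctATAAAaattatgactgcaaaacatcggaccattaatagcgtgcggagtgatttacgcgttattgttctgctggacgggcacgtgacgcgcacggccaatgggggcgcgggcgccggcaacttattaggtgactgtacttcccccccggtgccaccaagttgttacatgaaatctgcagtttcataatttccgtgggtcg
HOXC4 promoter: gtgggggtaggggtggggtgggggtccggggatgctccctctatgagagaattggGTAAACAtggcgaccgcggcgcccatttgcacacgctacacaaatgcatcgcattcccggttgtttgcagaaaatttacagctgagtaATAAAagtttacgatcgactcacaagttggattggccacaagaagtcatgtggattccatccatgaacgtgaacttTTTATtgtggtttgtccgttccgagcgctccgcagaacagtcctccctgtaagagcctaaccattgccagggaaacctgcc
HOXD4 promoter: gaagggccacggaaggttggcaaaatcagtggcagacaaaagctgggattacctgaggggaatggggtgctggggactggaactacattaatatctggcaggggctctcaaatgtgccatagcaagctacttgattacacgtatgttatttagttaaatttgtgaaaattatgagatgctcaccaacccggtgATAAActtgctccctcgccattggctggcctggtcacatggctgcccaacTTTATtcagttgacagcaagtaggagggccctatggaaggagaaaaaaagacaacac

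HOX proteins bind DNA with cofactors of the PBX, MEIS and PKNOX families, CDX genes control HOX genes in the gut, and EVX genes lie at cluster ends. Of 13 such genes 9 had H3K4me3 in both lists (not MEIS1, CDX1, CDX4 or EVX1). For H3K4me1 10 were tested, of which 2 rose and 1 fell in limma, beside 16.8% and 2.29% of all genes. MEIS2 had 6526 and 3699 bp in control and 9825 and 11593 bp in FOXD2 cells (log2 fold change 1.09, SE 0.28, limma adjusted p = 0.0197). PBX4 rose from 17690 and 13855 bp to 24613 and 24823 bp (log2 fold change 0.65, SE 0.19, limma adjusted p = 0.0349). CDX1, an intestinal homeobox gene, fell from 2760 and 1557 bp to 953 and 0 bp (log2 fold change -2.25, SE 0.68, limma adjusted p = 0.0423). Each of these 3 lost its call without control replicate 2, without FOXD2 replicate 2 and with equal list lengths (limma adjusted p = 0.239 for MEIS2, 0.0799 for PBX4 and 0.0715 for CDX1 in the last). None of the cofactor genes passed for H3K27ac or MLL4, where no gene did.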

How the data were processed

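Peaks were called per library. Tools named in the submitters' processing notes are MACS2 2.2.7.1, Bowtie2 2.3.4.1, cutadapt 3.4, bedtools and Picard, on hg38. Per the labels' protocols, histone marks came from MNase-digested chromatin without crosslinking, and MLL4 and the tags from crosslinked, sonicated chromatin. In the lists the authors deposited, the fold enrichment of a peak is a ratio, and its p-value and q-value are given as −log10. Which background each list used and the read depth are not given in the sources used here.

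From the deposited peaks the covered length per window was computed in Python 3.11.15 (pandas 2.3.3, numpy 2.4.6). For each mark log2(bp + 200) was tested in limma 3.58.1 (R 4.3.3, eBayes with trend) over all protein-coding genes with a mean of at least 200 bp, with Benjamini-Hochberg adjustment at 0.05, after checks on simulated data. Cluster totals had exact permutation tests (scipy 1.17.1), two-sided. H3K4me3 and the tags had no test. Stretches had at least 500 bp, and a tag region was a merged run of tag peaks.

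Values in every list were given for up to 8 members with the largest difference among those whose groups did not overlap, for members passing limma and for up to 6 members with the longest cover. The members, lists and rules were chosen with earlier results of these data known, and 1 gene of the lists is not reported here. Alternatives were other windows (0 and 10 kb), lists cut to equal length or to −log10 q of at least 5, pseudocounts of 50 and 1000 bp, no filter, an overlap of 50% for tag peaks, a replicate block, leaving out each library and, chosen after seeing the data, centred lists and a crossed block.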

Additional observations from a re-analysis of the deposited data

How the results depend on the processing

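Of 262 recomputed counts and cluster differences, 205 were classed as the same, 42 as moved and 15 as reversed. A count was the same if within 1.5 times of the reported count, or if it was 0 and stayed 0. Such zeros include the limma counts for H3K27ac, where no gene at all passed in any fit except that with the crossed block. A cluster difference was the same if it kept its sign, whatever its size. Of 235 recomputed values of single genes 199 kept direction and side of 0.05, 25 no longer passed, 9 newly passed and 2 reversed. The 25 all came from the genes that passed as reported, HOXC13, MEIS2, PBX4 and CDX1 for H3K4me1. The 199 include values of genes that passed in neither fit, so they do not measure how stable the calls were. Except where stated, the cause was not tested. The H3K4me1 count of members higher in FOXD2 cells, 1 as reported, was 0 at −log10 q of 5 or more, beside 2422 of 16353 genes. It was 0 on gene spans without extension, beside 2161 of 15451 genes, and 0 with 10 kb, beside 3173 of 17052. The count lower, 0 as reported, was 1 with equal list lengths (HOXA3), beside 483 of 16400 genes. With 10 kb it was 1 (HOXA4), beside 433 of 17052 genes. With a pseudocount of 1000 bp it was 1 (HOXA3), beside 407 of 16570 genes. With centred lists it was 6, beside 1641 of 16570 genes. With centred lists the members with both FOXD2 lists below control became 24 of 36 for H3K4me1, beside 6344 of 16570 genes. For H3K27ac they became 12 of 38, beside 3069 of 16401 genes. Members above became 2 of 38 for H3K27ac, beside 2450 of 16401 genes, and 4 of 21 for MLL4, beside 2120 of 8092. HOXC10 and HOXB2 reversed for H3K27ac (log2 fold changes -0.03 and -0.12). On gene spans alone H3K27ac had 8 of 35 members above and 1 below, beside 4738 and 767 of 15683 genes. With 10 kb it had 1 of 38 below, beside 714 of 16707 genes. MLL4 had 5 of 12 members tested below at −log10 q of 5 or more, beside 1987 of 5424 genes, and 4 of 9 on gene spans alone, beside 1180 of 4957. It had 3 of 27 below with 10 kb, beside 1968 of 9099 genes, and 3 of 31 with no filter, beside 2076 of 12409. The MLL4 difference in HOXB, 0.215 kb, reversed to -0.985 kb at −log10 q of 5 or more and to -0.281 kb with equal list lengths. Members with tag peaks in all 4 lists, 9 as reported, were 5 at −log10 q of 5 or more and 3 on gene spans alone. The share over all genes, 28.6% as reported, was not counted at these settings, so whether the drop is particular to HOX genes was not tested.

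With 1 library left out, H3K4me1 members with all FOXD2 lists above control ranged from 4 to 18 and below from 6 to 24. The 18 of 36 above came without control replicate 1, beside 11933 of 16527 genes. The 24 of 36 below came without control replicate 2, beside 6999 of 16622 genes. For H3K27ac these ranges were 5 to 28 and 2 to 23, with the counts over all genes beside the 28 and the 23 given above. For MLL4 they were 0 to 9 and 3 to 11. The 9 of 25 above came without FOXD2 replicate 2, beside 4586 of 9072 genes. The 11 of 20 below came without FOXD2 replicate 1, beside 5237 of 6778 genes. With a group of 1 library, a member is more easily separated. In limma fits with a lone library in a group, that library was assumed to vary like the others. The cluster difference in H3K4me1 ranged from -11.2 to 4.66 kb in HOXB and from -1.11 to 0.218 kb in HOXD. It kept its sign in HOXA (-16.5 to -4.86 kb) and HOXC (1.86 to 9.54 kb). For H3K27ac it ranged from -5.49 to 9.60 kb in HOXA, -12.7 to 14.3 kb in HOXB, -1.17 to 27.7 kb in HOXC and -13.0 to 4.81 kb in HOXD, and for MLL4 from -3.34 to 1.65 kb in HOXA, -3.83 to 4.25 kb in HOXB and -0.92 to 0.345 kb in HOXD.

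The replicate numbers do not pair the libraries by any label. Deviations of same-numbered libraries from their group means had correlations of 0.05 for H3K4me1, -0.50 for H3K27ac and 0.11 for MLL4 across 16570, 16401 and 8092 genes. With the replicate number as a block, H3K4me1 had 2 members higher (HOXC13 and HOXC11) and 0 lower in limma, with 3195 genes higher and 476 lower in all, and H3K27ac and MLL4 had 0. Crossing the H3K27ac numbers gave 1693 genes higher and 121 lower, and 0 members. Covered length depends on depth, which is unknown, and a stretch without a peak is not a stretch without the mark.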

Other observations

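RNA genes of the clusters were measured over their spans without extension and not tested. HOXA-AS2, which lies within the HOXA3 span, had H3K4me1 covered lengths of 5628 and 4766 bp in control and 3407 and 2657 bp in FOXD2 cells, with both FOXD2 values below both control values, as in the overlapping HOXA3 window. Its H3K27ac lay the other way, with 0 and 1216 bp in control and 1575 and 1922 bp in FOXD2 cells. HOXB-AS1 also had both FOXD2 H3K4me1 values below both control values, with 1028 and 163 bp in control against 0 and 0 bp. So did HOXD-AS2, with 1048 and 1198 bp against 0 and 956 bp. At the other RNA genes measured the H3K4me1 groups overlapped. HOTTIP, at the posterior end of HOXA, had 1310 and 1066 bp of H3K4me1 against 1163 and 1183 bp. HOTAIR, whose span overlaps that of HOXC11, had 981 and 412 bp against 1213 and 943 bp, and its H3K4me3 was 1436 bp in control and 1345 bp in FOXD2 cells.

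The longest H3K27ac stretches found in FOXD2 cells alone, in both lists, were in HOXC, 1056 bp at chr12:54013024-54014079, outside any member's span and with H3K4me1 in all 4 lists, and in HOXB, 978 bp at chr17:48636731-48637708, with no H3K4me1, MLL4, H3K4me3 or tag peak in any list. The longest of the reverse kind had 792 bp, in the HOXB3 span at chr17:48564348-48565139. Of HOXC bases under any H3K27ac peak (72.4 kb), 10.8% were in both FOXD2 lists alone and 0.584% in both control lists alone, beside 7.12% and 2.21% over all chromosomes. No test was made of these shares.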
